A study of Mus musculus with 6 samples.

Results

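The BCL2 family decides whether a cell opens its outer mitochondrial membrane and dies, and 10 of its genes were followed here in MLL-AF9 leukemia cells of mice with a floxed or an intact A20 gene. The genes were chosen by symbol from the table of read counts: the survival genes Bcl2, Bcl2l1 and Mcl1, the effector genes Bax and Bak1, and the BH3-only genes Bik, Bcl2l11, Bbc3, Pmaip1 and Bid. All 10 symbols were found among the 24062 genes of the table, and all 10 passed the low-count filter that left 12126 genes for testing. Bik passed it through the KO-labelled libraries alone. The 3 libraries labelled A20 KO came from lineage-negative mouse hematopoietic cells with a floxed A20 gene (A20 f/f) and a Rosa Cre-ER transgene, transduced by retrovirus with the fusion oncogene MLL-AF9. The 3 libraries labelled A20 WT came from cells with intact A20 (A20 +/+) that carried the same Cre-ER and the same oncogene. Cells of both groups were cultured with IL-6, IL-3 and SCF and received 1 µM 4-hydroxytamoxifen for 48 h, which activates Cre, so that Cre activity and the drug are shared by the controls. The sources used here do not say whether replicates were separate animals, transductions or cultures, so the p-values rest on the spread among these 6 libraries alone, and that spread may be technical.

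BCL2 family proteins act on one another by binding. BCL2, BCL-XL (encoded by Bcl2l1) and MCL1 hold the effectors BAX and BAK and the BH3-only proteins in check, BH3-only proteins report stress or loss of growth factor signals by occupying the survival proteins or by activating the effectors, and free BAX and BAK form the pores that release cytochrome c. In the myeloid lineage MCL1, a protein with a short life, and BCL2 are well known as survival factors and as drug targets in acute myeloid leukemia. A20, encoded by Tnfaip3, edits ubiquitin chains and limits NF-κB signalling, and several family genes are known targets of NF-κB or of p53.

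The libraries held between 16113320 and 25415274 counted reads. The targeted gene Tnfaip3 stood at 74.1 to 100.1 CPM under the KO label, against 7.39 to 8.67 CPM under the WT label (log2 fold change 3.38, adjusted p = 4.71e-05 by edgeR). This is a count over the whole gene and does not measure the deletion itself, but it goes against the label, so groups are called by their labels. Levels are CPM (reads of a gene scaled to a common library size by TMM), given as mean ± SD. Xist was at 0 to 4.78 CPM in the KO-labelled and 564 to 2109 CPM in the WT-labelled libraries, so genotype label and donor sex cannot be told apart. All 8 markers of the labelled cell type were detected. However, the progenitor marker Cd34 (1.17 to 1.99 against 597 to 632 CPM) and the granule gene Mpo (0.18 to 0.56 against 143 to 299 CPM) were nearly missing from the KO-labelled libraries. Csf1r, the receptor of the macrophage growth factor, was at 134 to 353 CPM there and at 2.84 to 36.2 CPM in the WT-labelled libraries. The rest of the list shifted less. Kit was at 100.3 to 103.1 against 306.8 to 402.8 CPM, and the granule gene Elane at 67.5 to 175.4 against 200.5 to 292.8 CPM. For Elane, Ptprc, Spi1 and Itgam the adjusted p ranged from 0.0952 to 0.418 by edgeR. Marker lists of other cells summed, KO-labelled against WT-labelled, to 1.01 to 1.56 against 0.94 to 1.89 CPM (6 erythroid genes), 0.36 to 0.63 against 1.92 to 2.18 CPM (5 B cell genes), 0.65 to 4.69 against 0.50 to 1.09 CPM (6 T and NK cell genes) and 3.65 to 6.45 against 14.7 to 25.5 CPM (5 mast cell and basophil genes). In every library the globin genes Hbb-bt, Hbb-bs and Hba-a1, the B cell genes Pax5 and Ms4a1, the T and NK cell genes Cd3e, Cd8a and Ncr1 and the mast cell gene Fcer1a were at 0. The 5 megakaryocyte genes summed to 36.3 to 123 CPM in KO-labelled and 43.4 to 53.8 CPM in WT-labelled libraries. Only Vwf lay higher under the KO label, at 35.2 to 121.9 against 2.80 to 26.2 CPM (adjusted p = 0.152 by edgeR). The rest of that list lay lower in every KO-labelled library. Itga2b was at 0.72 to 1.00 against 21.25 to 36.06 CPM, and Gp9 at 0 to 0.09 against 3.04 to 3.77 CPM. Pf4 was at 0 to 0.30 against 0.83 to 1.59 CPM, and Ppbp at 0.05 to 0.09 against 0.21 to 0.99 CPM. The stromal list summed to 60.7 to 105 CPM in KO-labelled and 262 to 332 CPM in WT-labelled libraries, nearly all of it Pecam1, while Col1a2 stayed at or below 0.10 CPM. The part of these shifts in the results below was not tested. In bulk RNA, fewer cells of a type and less RNA per cell cannot be told apart. In both groups replicate 1 differed most from the rest. Its chi-square per degree of freedom against them was 82.5 to 98.6 among KO-labelled and 212 to 239 among WT-labelled libraries, whereas replicates 2 and 3 differed from each other by 2.40 and 25.8. Results are therefore also given for replicate 1 and for replicates 2 and 3 apart.

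The family did not move as a block. In the KO-labelled libraries 4 of the 10 genes rose (Mcl1, Bax, Bik and Bbc3), Bcl2 fell, and 5 did not pass the test. Of all tested genes 27.3% were called by the same rule, a Benjamini-Hochberg adjusted p under 0.05 in the quasi-likelihood test of edgeR over 12126 genes, with 13.7% higher and 13.7% lower. Without Bik, whose filter passage required it to differ, 3 of 9 rose and 1 fell. The median log2 fold change, KO-labelled minus WT-labelled, was 0.32 over the 10 genes, 0.31 without Bik and −0.04 over all tested genes. In 6 of the 10 genes, and in 5 of 9 without Bik, the groups did not overlap, against 47.6% of all tested genes. Each role held both called and uncalled genes, with 2 of 3 survival genes, 1 of 2 effectors and 2 of 5 BH3-only genes called.

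**Figure D1:**
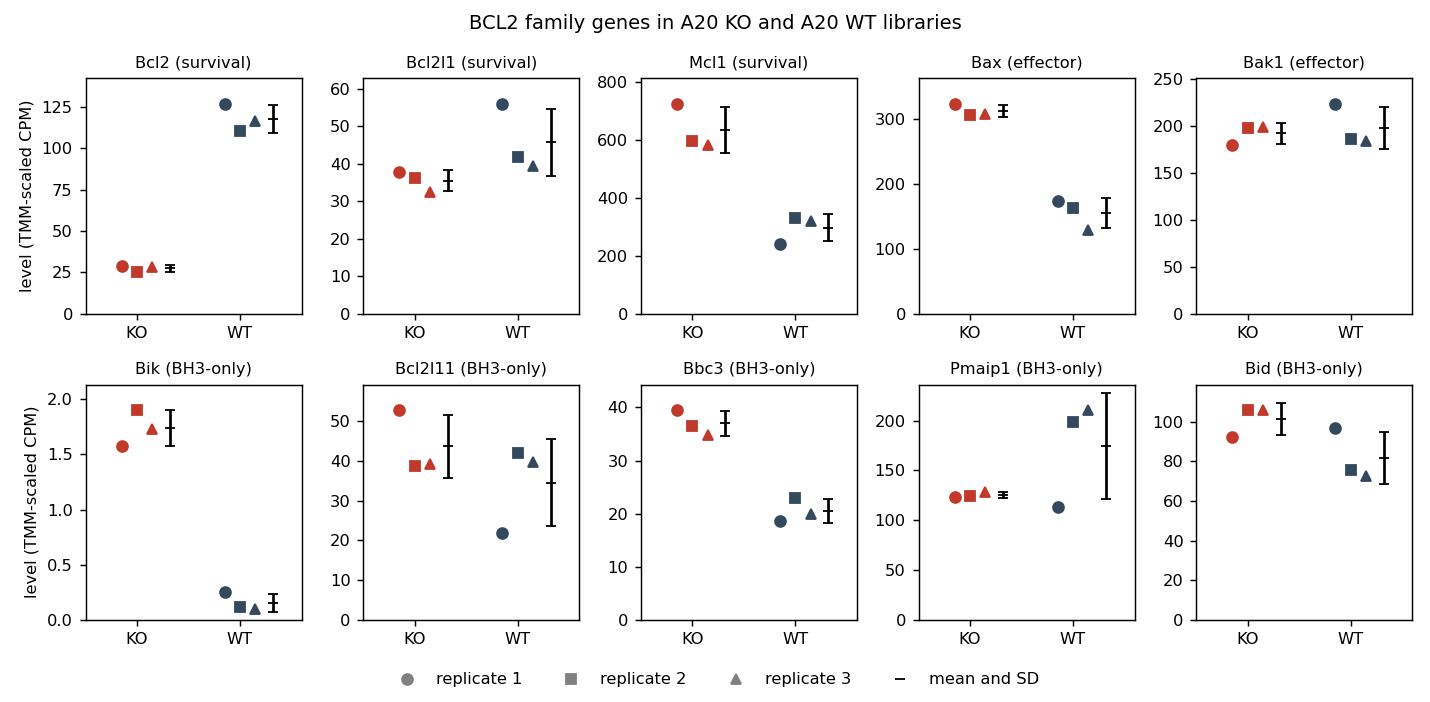
TMM-scaled level (CPM, linear axes from 0) of the 10 genes in each KO-labelled and WT-labelled library. Symbols mark replicates and the black bars the mean and SD of 3 libraries. Bcl2 lies lower and Mcl1, Bax, Bik and Bbc3 lie higher in every KO-labelled library, while WT-labelled replicate 1 stands away from the other WT-labelled libraries in Bcl2l11 and Pmaip1.

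Among the survival genes, Bcl2 showed the smallest p-value of the 10. Bcl2, the founding member of the family (mm10 chr1:106538178-106714274, minus strand), had 28.8, 25.2 and 27.9 CPM under the KO label, against 127, 110.2 and 117 CPM under the WT label. The KO-labelled libraries lay close together and the lowest WT-labelled library was far above all of them. Bcl2 averaged 27.3 ± 1.85 CPM in KO-labelled and 117.9 ± 8.45 CPM in WT-labelled libraries (SD, n = 3 each), a log2 fold change of −2.11 (SE 0.12, adjusted p = 8.28e-05 by edgeR). By absolute fold change it ranked 1182 of the 12126 tested genes. Of the exon length of Bcl2, 6.09% overlaps the opposite-strand gene D630008O14Rik, and whether reads were counted by strand is not given in the sources used here.

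Mcl1, which encodes the short-lived survival protein, moved the other way (chr3:95658788-95663176, plus strand). It had 726, 599 and 582 CPM under the KO label, against 243, 330 and 321 CPM under the WT label. The highest WT-labelled library stayed well below the lowest KO-labelled library, and replicate 1 held both extremes. Mcl1 averaged 636 ± 78.9 CPM in KO-labelled and 298 ± 48.1 CPM in WT-labelled libraries (SD, n = 3 each), a log2 fold change of 1.09 (SE 0.18, adjusted p = 0.00523 by edgeR).

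Bcl2l1, the gene of BCL-XL (chr2:152780668-152831728, minus strand), did not pass. Its levels were 37.8, 36.4 and 32.5 CPM under the KO label, against 56.1, 41.8 and 39.3 CPM under the WT label. The groups did not overlap, but the nearest libraries lay close together and WT-labelled replicate 1 lay well above the rest. The log2 fold change was −0.36 (95% interval −0.76 to 0.03, adjusted p = 0.15 by edgeR).

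Of the effector genes, Bax rose and Bak1 did not pass. Bax (chr7:45461697-45466898, minus strand) had 323, 305 and 308 CPM under the KO label, against 174, 163 and 129 CPM under the WT label. The groups did not overlap, and the KO-labelled libraries lay closer together. Bax averaged 312 ± 9.82 CPM in KO-labelled and 155 ± 23.2 CPM in WT-labelled libraries (SD, n = 3 each), a log2 fold change of 1.01 (SE 0.15, adjusted p = 0.00314 by edgeR). A share of 12.2% of its exon length is also annotated to Gm45808 on the same strand.

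Bak1, which can form pores without Bax (chr17:27019810-27029009, minus strand), had 179, 197 and 199 CPM under the KO label, against 223, 186 and 184 CPM under the WT label. The groups overlapped. Its log2 fold change was −0.04 with a 95% interval of −0.35 to 0.26 (adjusted p = 0.84 by edgeR). The opposite-strand gene Ggnbp1 covers 18.2% of its exon length.

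Among BH3-only genes, Bbc3 and Bik rose. Bbc3 encodes PUMA, a strong killer known as a p53 target (chr7:16308393-16318205, plus strand). It had 39.6, 36.6 and 34.8 CPM under the KO label, against 18.61, 23.02 and 20.01 CPM under the WT label. All KO-labelled libraries were above all WT-labelled libraries, giving a log2 fold change of 0.85 (SE 0.14, adjusted p = 0.00476 by edgeR).

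Bik, whose product in human cells resides at the endoplasmic reticulum (chr15:83526862-83544634, plus strand), was scarce in both groups. It had 35, 44 and 29 reads under the KO label, against 6, 2 and 2 reads under the WT label, or 1.58, 1.91 and 1.73 CPM against 0.25, 0.11 and 0.10 CPM. In WT-labelled replicates 2 and 3 it lay under 3 reads, the count taken as the floor of detection. Summed over libraries, 108 reads in the KO-labelled and 10 in the WT-labelled group gave a ratio of 10.7 after scaling to library size (95% counting interval 5.60 to 23.0, which covers counting error only). The model gave a log2 fold change of 3.40 (SE 0.50, adjusted p = 0.00332 by edgeR), and by level per exon length Bik ranked at the 9.98th percentile of tested genes.

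The other 3 BH3-only genes did not pass with all 6 libraries. Bcl2l11, which encodes BIM, the BH3-only protein tied to cytokine withdrawal in blood cells (chr2:128126038-128162547, plus strand), had 52.9, 38.8 and 39.3 CPM under the KO label, against 21.9, 42.0 and 39.8 CPM under the WT label. Replicates 2 and 3 of both groups lay together and replicate 1 carried the highest and the lowest value. Its log2 fold change was 0.34 (95% interval −0.29 to 0.97, adjusted p = 0.39 by edgeR).

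Pmaip1, the gene of NOXA, which binds mainly MCL1, lies on chromosome 18. It had 123.4, 124.2 and 128.6 CPM under the KO label, against 113, 199 and 211 CPM under the WT label. The KO-labelled libraries hardly differed among themselves, and WT-labelled replicate 1 lay below all of them while the other WT-labelled libraries lay far above. The log2 fold change was −0.48 (95% interval −1.02 to 0.07, adjusted p = 0.18 by edgeR).

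Bid, whose product is cut by a caspase downstream of death receptors (chr6:120891930-120916853, minus strand), had 92.3, 105.8 and 106.1 CPM under the KO label, against 96.7, 75.7 and 72.6 CPM under the WT label. WT-labelled replicate 1 alone reached into the range of the KO-labelled libraries. The log2 fold change was 0.31 (95% interval −0.04 to 0.66, adjusted p = 0.17 by edgeR). Its exons overlap those of its family neighbour Bcl2l13 on the opposite strand over 17.7% of its exon length.

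Taken apart by replicate number, the 5 called genes kept their direction and the uncalled BH3-only genes kept neither direction nor size. In replicate 1, with 1 library per group and no test, the log2 ratio of KO-labelled over WT-labelled CPM was −2.14 for Bcl2, 1.58 for Mcl1, 0.89 for Bax, 2.66 for Bik and 1.09 for Bbc3. In replicates 2 and 3 alone the fitted values were −2.11 (SE 0.09) for Bcl2, 0.84 (SE 0.07) for Mcl1, 1.05 (SE 0.11) for Bax, 4.00 (SE 0.56) for Bik and 0.72 (SE 0.11) for Bbc3, each called (largest adjusted p = 0.00212 by edgeR). Bcl2 gave nearly the same ratio in both, and Mcl1 was further from 0 in replicate 1. For Bcl2l11 the ratio was 1.27 in replicate 1 and −0.08 (SE 0.08) in replicates 2 and 3. Pmaip1 had 0.12 in replicate 1 and −0.71 (SE 0.07, adjusted p = 3.42e-04 by edgeR) in replicates 2 and 3, and Bid −0.07 and 0.50 (SE 0.07, adjusted p = 0.00163 by edgeR). Of the other uncalled genes, Bak1 had −0.32 and 0.08 (SE 0.06), and Bcl2l1 −0.57 and −0.25 (SE 0.10). With replicates 2 and 3 alone 7 of the 10 genes were called, where 52.9% of all tested genes were, and 7 of 10 also without WT-labelled replicate 1, where 42.8% of all tested genes were (Pmaip1 adjusted p = 0.00125 and Bid 0.0133 by edgeR). Whether replicate 1 changes these effects was not tested, since it holds 1 library per group.

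**Figure D2:**
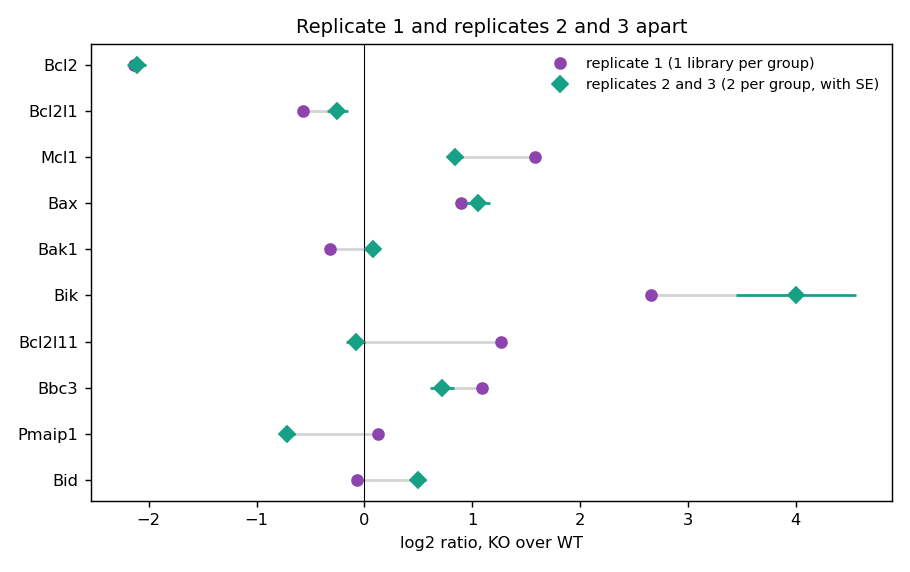
Log2 ratio of KO-labelled over WT-labelled level for each gene in replicate 1 (circles, 1 library per group, no error) and in replicates 2 and 3 (diamonds, 2 libraries per group, with SE). Bcl2 lies at −2.14 and −2.11, while Bcl2l11 lies at 1.27 and −0.08 and Pmaip1 at 0.12 and −0.71.

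The calls of Mcl1, Bax, Bik and Bbc3 were lost when replicates 2 and 3 were not counted as separate samples. With both summed into 1 sample in each group, Bcl2 alone was called, where 8.44% of all tested genes were, and the adjusted p by edgeR was 0.0598 for Mcl1, 0.053 for Bax, 0.0591 for Bik and 0.0594 for Bbc3 (range over all alternatives 2.85e-07 to 0.0598, 7.8e-10 to 0.053, 1.36e-05 to 0.0591 and 7.24e-06 to 0.0594). The log2 fold changes in that fit were 1.25 for Mcl1, 1.02 for Bax, 3.31 for Bik and 0.95 for Bbc3. With KO-labelled replicates 2 and 3 alone summed, the pair with the smallest chi-square, all 5 genes were called (largest adjusted p = 0.0236 by edgeR), where 15.3% of all tested genes were. Leaving out any single library ended none of the 5 calls.

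Levels can be compared between genes only per length, so CPM were divided by the length in kilobases of all annotated exons of each gene. On this scale of CPM per kilobase Bax (198 in KO-labelled and 98.5 in WT-labelled libraries) and Mcl1 (186 and 87.1) led the 10 genes in both groups, followed by Bak1 (79.6 and 82.1). Bcl2 stood at 2.98 in KO-labelled and 12.9 in WT-labelled libraries, Bcl2l1 at 7.75 and 9.97, and Bik was lowest with 1.09 and 0.10. Bax and Mcl1 differed by less than the SD of Mcl1 in KO-labelled (23.1) and WT-labelled (14.1) libraries. In the WT-labelled libraries Mcl1 and Bak1 also differed by less than the SD of either, whereas Bax lay above Bak1 in all 3.

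Within the summed per-length level of the 3 survival genes, Mcl1 made up 94.9%, 94.2% and 94.4% under the KO label, against 73.1%, 82.0% and 81.5% under the WT label. Bcl2 made up 1.40%, 1.48% and 1.69% under the KO label, against 14.3%, 10.2% and 11.1% under the WT label, and Bcl2l1 averaged 3.96% ± 0.29 and 9.26% ± 2.9 (SD, n = 3 each). The sum itself was 224, 186 and 180 CPM per kilobase under the KO label, against 97.0, 118 and 115 under the WT label, so the loss of Bcl2 reads was smaller than the gain of Mcl1 reads on this scale. These shares are descriptions of genes already called above and carry no test.

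The ratio of Mcl1 to Bcl2 per length was 67.6, 63.5 and 55.9 under the KO label, against 5.12, 8.03 and 7.38 under the WT label. Bax over Bcl2, a ratio often quoted for sensitivity to apoptosis, was 65.2, 70.2 and 64.0 under the KO label, against 7.97, 8.57 and 6.45 under the WT label. Neither ratio overlapped between the groups. Bax over Bak1 was 2.49 ± 0.23 in KO-labelled and 1.20 ± 0.13 in WT-labelled libraries, and Pmaip1 over Mcl1 was 0.25 ± 0.03 in KO-labelled and 0.72 ± 0.12 in WT-labelled libraries (SD, n = 3 each). Bcl2l11 over Bcl2 was 2.09, 1.75 and 1.61 in KO-labelled libraries and 0.20, 0.43 and 0.39 in WT-labelled libraries, although Bcl2l11 itself did not pass. Bcl2, already called lower above, is the denominator of each ratio to Bcl2, and its fall by itself raises them. All of these are ratios of transcript counts, carry no test and say nothing of protein.

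**Figure D3:**
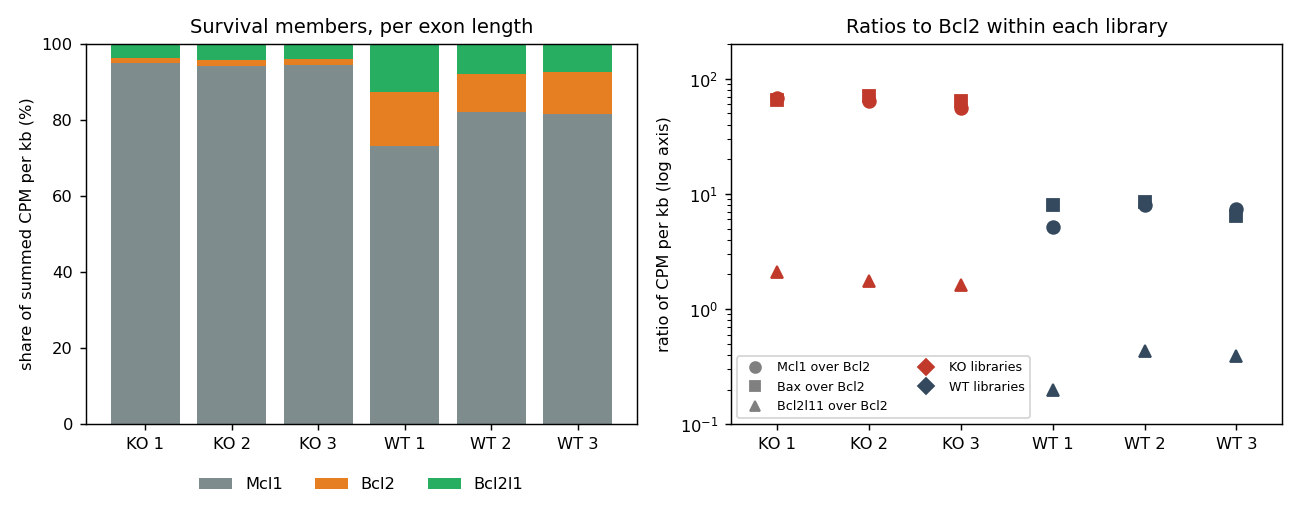
Left, share (%) of Mcl1, Bcl2 and Bcl2l1 in their summed CPM per kilobase of exon, in each library. Right, ratios of CPM per kilobase to Bcl2 on a log axis, with KO-labelled libraries in red and WT-labelled libraries in dark blue. Mcl1 takes 94.2% to 94.9% in KO-labelled and 73.1% to 82.0% in WT-labelled libraries. All 3 ratios lie higher in every KO-labelled library, and their shared denominator Bcl2 was already called lower there.

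The start regions of the gene that fell and of 3 that rose are printed to show which motifs they hold. Of the 10 genes 8, all but Bik and Pmaip1, were matched to the RefSeq promoter table of GRCm38.p6. The 250 bases before the start are given on the gene's own strand, with capitals for GC boxes (GGGCGG on either strand, sites of Sp1-type factors), for the p53 half-site in Bax and for the NF-κB consensus in Bbc3. Where RefSeq lists several starts (Bbc3), the first along the strand is shown.
Bcl2, chr1:106714291-106714540, minus strand: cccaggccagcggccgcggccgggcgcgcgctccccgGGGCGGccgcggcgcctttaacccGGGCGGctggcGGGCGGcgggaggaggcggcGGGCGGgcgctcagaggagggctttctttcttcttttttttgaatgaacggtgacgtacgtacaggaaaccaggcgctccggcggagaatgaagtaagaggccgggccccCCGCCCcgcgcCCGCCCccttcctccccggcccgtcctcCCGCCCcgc
Mcl1, chr3:95658471-95658720, plus strand: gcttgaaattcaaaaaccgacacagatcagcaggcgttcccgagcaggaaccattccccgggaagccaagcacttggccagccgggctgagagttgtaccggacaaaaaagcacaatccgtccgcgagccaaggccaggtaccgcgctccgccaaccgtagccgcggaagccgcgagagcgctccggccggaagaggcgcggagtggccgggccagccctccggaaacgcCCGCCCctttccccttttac
Bax, chr7:45466899-45467148, minus strand: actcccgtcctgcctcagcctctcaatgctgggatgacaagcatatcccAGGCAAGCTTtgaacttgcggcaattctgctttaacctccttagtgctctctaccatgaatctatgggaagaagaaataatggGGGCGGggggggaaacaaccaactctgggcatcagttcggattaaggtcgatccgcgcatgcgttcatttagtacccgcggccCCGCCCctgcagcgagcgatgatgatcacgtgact
Bbc3, chr7:16309333-16309582, plus strand: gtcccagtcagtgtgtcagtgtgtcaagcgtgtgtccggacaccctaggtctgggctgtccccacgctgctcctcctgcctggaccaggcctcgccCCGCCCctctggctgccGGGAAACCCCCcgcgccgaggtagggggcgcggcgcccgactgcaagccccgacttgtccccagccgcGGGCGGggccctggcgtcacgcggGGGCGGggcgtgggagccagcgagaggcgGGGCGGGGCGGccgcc
Bcl2 held 7 GC boxes, Bbc3 held 5, of which 2 share a base, Bax held 2 and Mcl1 held 1. GC boxes were found in 32.7% of 32851 such windows, so they are common. Bax held a p53 half-site (the decamer consensus, 201 bases before the start), which 7.13% of windows hold and none of the other printed windows do. Bbc3 held the NF-κB consensus 137 bases before the start, with an overlapping match on the other strand, against 3.90% of windows. Of the 3 Bbc3 windows in the table, the other 2 (chr7:16310011-16310260 and chr7:16310181-16310430) held no such match. The STAT motif TTCNNNGAA, in 7.02% of windows, was in none of the 4. Genes that were not called also held matches, in windows not printed. A window of Bcl2l1 held the NF-κB consensus, and a window of the other family gene Bmf held a p53 half-site. A match describes letters only and does not show that a factor binds.

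Of 17 other BCL2 family genes listed, 16 were in the table and 11 were tested. Bcl2a1a rose, Bcl2l14 fell and 9 did not pass, with a median log2 fold change of 0.24. Bcl2a1a, a survival gene known as an NF-κB target, had 21.5, 11.8 and 11.9 CPM under the KO label, against 0.08, 1.09 and 1.74 CPM under the WT label (log2 fold change 3.97, SE 0.80, adjusted p = 0.0106 by edgeR). Its near-identical copies Bcl2a1b and Bcl2a1d were tested but not called (adjusted p = 0.33 and 0.17 by edgeR). The 3 genes share 79.6% to 89.1% of their 31-base words with transcripts of other genes, so reads may have been split among them. Bcl2l14, a distant relative of unsettled function, had 4.91, 3.59 and 2.98 CPM under the KO label, against 9.39, 7.75 and 7.99 CPM under the WT label (log2 fold change −1.13, SE 0.26, adjusted p = 0.0191 by edgeR). The call of Bcl2l14 did not hold when KO-labelled replicate 2 (adjusted p = 0.09 by edgeR) or replicate 3 (0.0857) was left out, and both calls were lost with replicates 2 and 3 summed (0.0944 for Bcl2a1a and 0.17 for Bcl2l14).

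Bcl2l2, the gene of the survival protein BCL-W, had 70.1, 60.9 and 63.9 CPM under the KO label, against 30.1, 48.1 and 50.1 CPM under the WT label. The groups did not overlap, yet it did not pass (log2 fold change 0.61, 95% interval 0.12 to 1.09, adjusted p = 0.068 by edgeR), although it was called by DESeq2 (adjusted p = 0.0429) and by edgeR without WT-labelled replicate 1 (0.0176). Bmf, a BH3-only gene whose product binds the cytoskeleton, had 29.8, 17.0 and 15.7 CPM under the KO label, against 5.72, 34.0 and 33.2 CPM under the WT label, with opposite directions in replicate 1 and in the other replicates. Its fitted log2 fold change was −0.22 (95% interval −1.66 to 1.23, adjusted p = 0.83 by edgeR), and −1.05 in replicates 2 and 3 alone (adjusted p = 3.27e-04 by edgeR). Bad, the BH3-only gene regulated by growth factor kinases, overlapped between the groups (log2 fold change 0.01, 95% interval −0.40 to 0.43). Among the related genes, Bnip3 and Bnip3l, which act in mitophagy, and Bcl2l12 and Bcl2l13 did not pass, with log2 fold changes of 0.39, −0.18, −0.38 and 0.24. The effector gene Bok and the survival gene Bcl2l10 stayed at or below 0.48 and 0.06 CPM and were not tested, and Hrk had 1 read in all.

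**Figure D4:**
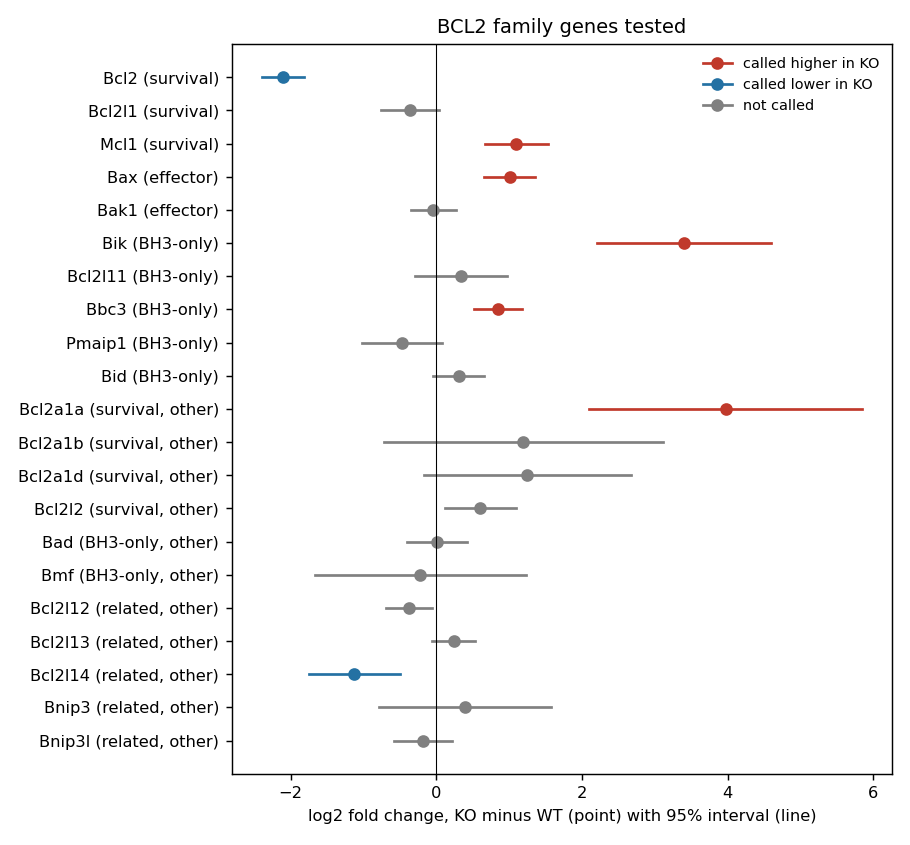
Log2 fold change (KO-labelled minus WT-labelled) with 95% interval for the 10 genes and the 11 other family genes tested, in red where called higher, blue where called lower and grey where not called. Bcl2 at −2.11 and Bcl2l14 at −1.13 are the genes called lower, and Bcl2a1a at 3.97 and Bik at 3.40 lie furthest to the right.

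Downstream of the mitochondrial step, the apoptosome genes Apaf1 and Casp9 rose. Of 14 genes that act after or beside pore formation, 4 rose (median log2 fold change 0.11). Apaf1, the scaffold of the apoptosome, had 119.8, 154 and 159 CPM under the KO label, against 63.2, 72.6 and 77.2 CPM under the WT label (log2 fold change 1.02, SE 0.15, adjusted p = 0.00351 by edgeR). Casp9, the caspase it activates, had 97.1, 83.4 and 85.9 CPM under the KO label, against 50.9, 62.0 and 59.0 CPM under the WT label (log2 fold change 0.63, SE 0.13, adjusted p = 0.0118). Neither gene overlapped between groups, and both calls held without any single library but were lost with replicates 2 and 3 summed in each group (adjusted p = 0.0598 for Apaf1 and 0.0959 for Casp9 by edgeR). The mitochondrial protease gene Htra2 and the nuclease gene Endog rose with adjusted p = 0.0356 and 0.0432. Both calls were lost without KO-labelled replicate 2 or 3 or WT-labelled replicate 2 or 3 (0.108 to 0.132 for Htra2, 0.0551 to 0.119 for Endog), and that of Endog also without KO-labelled replicate 1 (0.117 by edgeR). Cycs, the gene of cytochrome c, was high in replicate 1 of both groups, at 362, 196 and 203 CPM under the KO label, against 356, 167 and 121 CPM under the WT label.

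Of the 6 mitochondrial partner genes listed, 0 were called by edgeR, DESeq2 or limma-voom, and 0 had an unadjusted p under 0.05 by any of these. In replicates 2 and 3 alone, however, Vdac1, Vdac2, Vdac3 and Mtch2 were called (adjusted p = 0.00337, 0.0173, 0.0306 and 0.0418 by edgeR). Dnm1l and Opa1 were not. Vdac2, a channel that holds BAK at the membrane, had a log2 fold change of 0.26 (95% interval −0.16 to 0.68), and Vdac1 one of 0.11 (95% interval −0.34 to 0.55). Of 13 tested transcription factors that act on family genes, E2f1 rose, Stat5a, Stat5b and Foxo4 fell and 9 did not pass (median −0.02). Stat5a and Stat5b, which carry cytokine signals to survival genes, had log2 fold changes of −0.67 (SE 0.14, adjusted p = 0.0125 by edgeR) and −0.54 (SE 0.12, adjusted p = 0.017 by edgeR). Trp53 itself did not pass with all libraries (log2 fold change 0.26, 95% interval −0.23 to 0.75). It had 153, 185 and 186 CPM under the KO label, against 192, 122 and 122 CPM under the WT label. Its log2 ratio was −0.33 in replicate 1 and 0.58 (SE 0.06, adjusted p = 5.86e-04 by edgeR) in replicates 2 and 3 alone. Rela, a subunit of NF-κB, did not pass either (log2 fold change 0.20, 95% interval −0.09 to 0.49). Of 6 tested genes for turnover of family proteins, Btrc, a ubiquitin ligase subunit, rose (log2 fold change 0.53, SE 0.14, adjusted p = 0.0292 by edgeR) and 5 did not pass, among them Huwe1, a ligase for MCL1 (−0.45, 95% interval −0.85 to −0.05, adjusted p = 0.0927). The calls of Stat5a, Stat5b, Foxo4, E2f1 and Btrc were lost without any of the 3 KO-labelled libraries (adjusted p 0.0502 to 0.124 by edgeR). Those of Stat5b, E2f1 and Btrc were also lost without WT-labelled replicate 2 or 3 and that of Foxo4 without WT-labelled replicate 2 (0.0543 to 0.0805 by edgeR). Over the 50 tested genes outside the 10, 7 rose and 6 fell, a share close to that of all tested genes, and their median log2 fold change was 0.02.

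**Figure D5:**
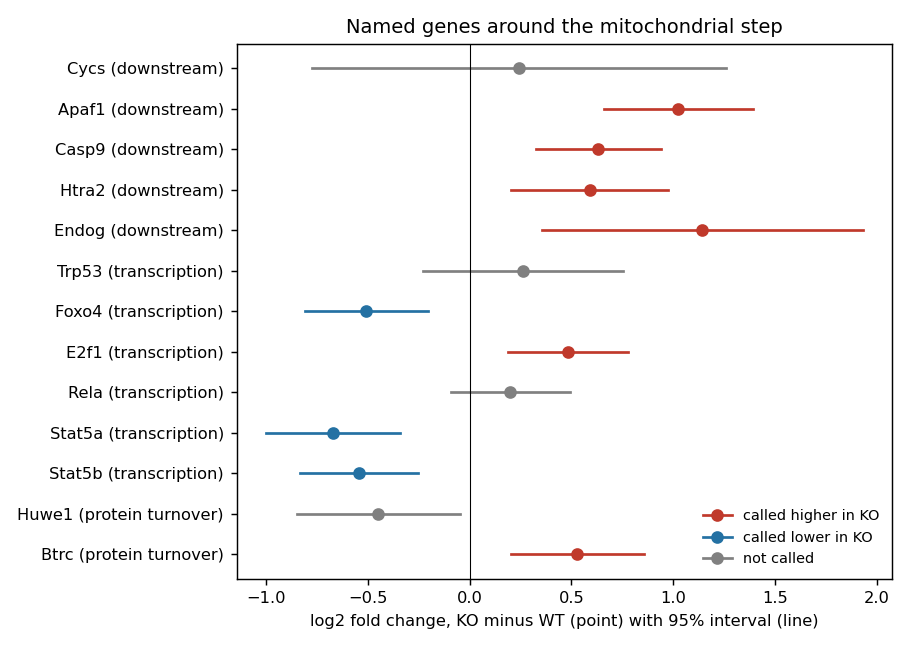
Log2 fold change (KO-labelled minus WT-labelled) with 95% interval for the 13 named genes that act downstream of the mitochondrial step, as transcription factors or in protein turnover, coloured as called higher (red), called lower (blue) or not called (grey). Apaf1 at 1.02 and Casp9 at 0.63 lie to the right of 0, and Stat5a at −0.67 lies to the left.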

How the data were processed

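Poly(A) RNA of 6 libraries was sequenced from stranded TruSeq preparations, per the labels' protocols. The deposited table holds raw read counts per gene, made by the authors with FastQC 0.11.7, HISAT2 2.0.5 and featureCounts 1.5.2 on mm10, per the submitters' processing notes; annotation and strand setting were not stated in these sources. Groups came from the sample titles. Counts were scaled by TMM, filtered with filterByExpr (about 0.48 CPM) and tested with edgeR 4.0.16 (robust quasi-likelihood, group only) in R 4.3.3, with Benjamini-Hochberg adjustment over all tested genes at 0.05. limma 3.58.1 and DESeq2 1.42.0 were alternatives. The code was tested on simulated data. SE was the absolute log2 fold change over the root of F. Exon lengths, positions and overlaps came from GENCODE M21 (GRCm38), promoters from RefSeq. Libraries held 16113320 to 25415274 reads, and 3 counts equalled 0.13 to 0.18 CPM. The 10 genes and all lists were chosen with earlier results of these data known. Named were all 10, the tested relatives and up to 4 called genes per pathway list by p (2 most abundant where none was called); Endog, Cycs, Trp53, Rela, Huwe1, Bok, Bcl2l10 and Hrk were added after their values were seen. Some listed genes are not reported here.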

Additional observations from a re-analysis of the deposited data

How the results depend on the processing

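Of the 10 genes, 5 were called with all libraries, 5 to 7 with any single library left out, and 1 with replicates 2 and 3 summed in each group; Bcl2 was called under all 19 alternatives (log2 fold change −2.16 to −2.05). Of the 50 other family and pathway genes 13 were called, 4 to 20 with a library left out, 30 in replicates 2 and 3 alone, 4 with only the KO-labelled replicates 2 and 3 summed, 2 at an adjusted p of 0.01, and by edgeR 0 with both groups summed (9 at an unadjusted p under 0.05; no other tool was run on the sums). Of all genes 3316 were called, 1855 to 5280 with a library left out, and 6458, 1927, 1694 and 1061 under those same 4 settings. Summing leaves fewer samples; the cause of the other shifts was not tested. A fit with the replicate block called 5, 3 and 2023 genes. The numbers were not taken as pairs in the main fit. Over all tested genes, deviations of same-numbered libraries correlated at −0.05, −0.11 and 0.04, and most libraries did not correlate best with their own number. Gapdh, however, was at 2716 CPM in KO-labelled and 2645 CPM in WT-labelled replicate 1. In replicates 2 and 3 it was at 254.4 and 248.5 CPM (KO-labelled) and at 180.7 and 166.7 CPM (WT-labelled). Whether the numbers mark a shared batch was not tested. Mcl1's share of the survival genes was 15.6 percentage points higher in KO-labelled libraries, 12.7 to 17.2 with a library left out, 19.8 with the longest transcript as length, and 15.4 with Bcl2l2 in the sum, which was added after seeing the data. No called value changed sign, and no scaling moved the median of all genes by over 0.1. Depth limits Bik, Bok, Hrk and Bcl2l10.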
